A study of Mus musculus with 8 samples.

Results

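The 10 genes described here were taken by symbol: Hk2, Pfkl, Aldoa, Tpi1, Gapdh, Pgk1, Eno1, Pkm, Ldha and Pdk1. All 10 were present in each of the 4 tables deposited by the authors, which together listed 16896 genes. The 10th, Pdk1, is a regulator of pyruvate use and not an enzyme of glycolysis itself. The data are TT-seq, in which cells receive a short pulse of 4-thiouridine (4sU) so that RNA made during the pulse can be pulled out of total RNA and sequenced. All 8 libraries came from E14 mouse embryonic stem cells, a line of male origin, given 500 nM 4sU for 5 min. The wildtype group had 3 libraries, labelled as biological triplicates. Culture is labelled as LIF medium, with an LIF+2i recipe also listed, and which of them applied here is not stated. The mutant cells carried the K122A change in histone H3.3, which is encoded by H3f3a and H3f3b, 4 alleles in all. The single-targeted group comprised 2 lines with 2 mutant alleles each: one was H3f3a A/A with H3f3b WT/WT, the other H3f3a WT/WT with H3f3b A/A. The dual-targeted group comprised 3 lines, all with 3 mutant alleles. A pair of clones had H3f3a A/A and H3f3b WT/A, called the clones here, and the other line had H3f3a WT/A and H3f3b A/A, called the H3f3b-homozygous dual line. Each mutant line was sequenced once, so replicate error within the mutant groups is line-to-line variation, and in a bulk culture fewer cells of a type and less RNA per cell cannot be told apart.

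Glycolysis splits glucose into pyruvate in the cytosol and yields ATP without oxygen. Hexokinase traps glucose as its phosphate, phosphofructokinase commits it to breakdown, aldolase and triosephosphate isomerase make the triose phosphates, and the payoff enzymes from GAPDH to pyruvate kinase recover ATP. Lactate dehydrogenase then turns pyruvate into lactate, while pyruvate dehydrogenase kinase 1 holds pyruvate back from the mitochondria. Mouse embryonic stem cells rely heavily on this pathway, and several of its genes are known targets of the transcription factors HIF1 and MYC.

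Markers of the labelled cell type were present throughout, since all 10 embryonic stem cell markers on the list were in every table, with mean normalized counts from 419 for Utf1 to 4211 for Zfp42 per the authors' deposited table of dual-targeted and wildtype libraries. Of 8 fibroblast or feeder markers, 2 were in that table, Thy1 at 25.2 and Pdgfrb at 15.8 mean normalized counts, and the collagen genes Col1a1, Col1a2 and Col3a1 were not listed there. Of 8 markers of differentiated lineages, 4 were listed, the highest at 162 mean normalized counts. In dual-targeted lines 7 of the 10 stem cell markers were higher and 0 lower than wildtype, against 10.8% and 10.1% of all genes. Zfp42 and Esrrb stood below wildtype there, at log2 ratios of -0.24 and -0.28 by group means rebuilt from the deposited mean counts. In the dual-targeted against single-targeted comparison, 2 of the 10 markers, Pou5f1 and Sall4, were higher and 0 lower, against 4.37% and 2.69% of all genes. The part of these marker differences in the values of the glycolytic genes was not tested.

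The main result was a difference between the mutant groups. In dual-targeted lines, 9 of the 10 genes were higher than in single-targeted lines at an adjusted p under 0.05 and 0 were lower, with Pdk1 the exception. By the deposited values all except Hk2 stood below wildtype in single-targeted lines, and all except Pdk1 stood above it in dual-targeted lines, although few of these single steps passed the test on their own. The single-targeted lines differ in genotype and could not be separated, so whether each of them stood below wildtype is unknown. With the median of genes of like length and mean count taken out, the single-targeted side kept a median of -0.44. The dual-targeted side fell from 0.41 to 0.03, with Pfkl, Tpi1 and Gapdh turning below 0. All these fold changes are read as shrunken towards 0, to a degree that may differ between the comparisons. How much of this contrast comes from that shrinkage was not tested. Of all genes tested between the mutant groups, 4.37% were called higher and 2.69% lower. At mean counts of at least 500, where the test detects smaller changes and where all 10 members lie, 8.78% were called higher. All 10 had an adjusted p in every table, so none fell to the low-count filter. The median log2 fold change of the 10 members was 0.96, a 1.95-fold difference, against 0.00 for all genes of the table. The members were chosen with earlier results of these data known, so these counts and shares are a description only.

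**Figure D1:**
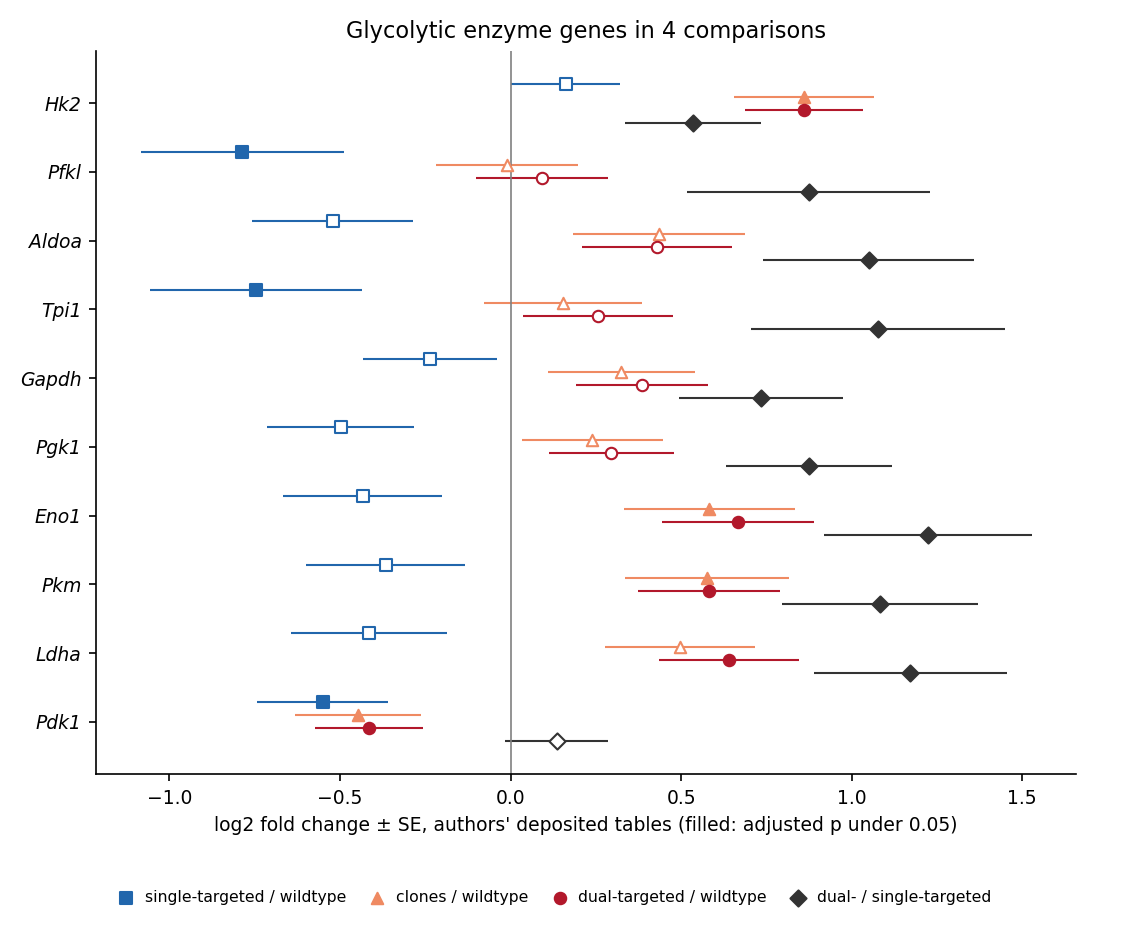
Log2 fold change with its standard error (horizontal axis) for the 10 glycolytic enzyme genes in the authors' 4 deposited comparisons, filled where the adjusted p was under 0.05. The dual- against single-targeted values (diamonds) of 9 genes lie between 0.53 and 1.22, while the single-targeted values against wildtype (squares) of 9 genes lie below 0.

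Upstream sequence is shown for 4 of the genes, since they mark the extremes of the pattern: Ldha and Eno1 had the largest dual- against single-targeted differences, Hk2 was the gene that stood above wildtype in both mutant groups, and Pdk1 the one that stood below it in both. Each run is the 250 bases before the RefSeq start (GRCm38.p6), 5′ to 3′ on the gene's own strand. Capitals mark matches on either strand to ACGTG. This is a form of the core recognised by HIF1 and overlaps the E-box CACGTG bound by MYC. Other forms of the HIF1 core were not searched for or marked.

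Ldha (chr7:46845554-46845803, plus strand): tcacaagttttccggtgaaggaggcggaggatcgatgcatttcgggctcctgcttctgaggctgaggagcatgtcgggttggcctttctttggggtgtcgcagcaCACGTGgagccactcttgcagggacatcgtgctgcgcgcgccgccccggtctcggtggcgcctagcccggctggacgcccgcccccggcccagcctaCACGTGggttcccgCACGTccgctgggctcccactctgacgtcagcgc

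Eno1 (chr4:150236458-150236707, plus strand): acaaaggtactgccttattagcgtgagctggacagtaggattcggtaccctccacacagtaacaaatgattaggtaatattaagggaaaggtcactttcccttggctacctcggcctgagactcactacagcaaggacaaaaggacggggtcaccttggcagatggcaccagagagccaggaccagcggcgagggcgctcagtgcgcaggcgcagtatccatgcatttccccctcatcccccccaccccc

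Hk2 (chr6:82774455-82774704, minus strand): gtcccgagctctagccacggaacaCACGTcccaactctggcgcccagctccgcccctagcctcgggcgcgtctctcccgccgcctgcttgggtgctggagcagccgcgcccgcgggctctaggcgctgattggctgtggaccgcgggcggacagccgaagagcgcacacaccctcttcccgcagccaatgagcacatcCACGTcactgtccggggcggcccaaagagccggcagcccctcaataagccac

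Pdk1 (chr2:71872974-71873223, plus strand): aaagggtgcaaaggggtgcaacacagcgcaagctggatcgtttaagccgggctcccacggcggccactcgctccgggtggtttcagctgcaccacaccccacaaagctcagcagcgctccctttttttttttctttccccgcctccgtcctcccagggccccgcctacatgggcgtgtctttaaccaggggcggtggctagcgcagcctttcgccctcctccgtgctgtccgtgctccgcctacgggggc

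The upstream stretch of Ldha held 5 matches to ACGTG, 4 of which are the both-strand reading of 2 E-boxes. Their first bases lie at -145, -144, -48, -47 and -34 from the start. Hk2 had matches at -226 and -52, Pgk1 at -150 and -131, and Aldoa at -126. No match to ACGTG was found in this window for Pfkl, Tpi1, Gapdh, Eno1, Pkm or Pdk1, which does not tell of other forms of the HIF1 core. In all, 4 of 10 members held ACGTG there, compared with 21.5% of 13489 windows of the same length at starts of genes in the dual- against single-targeted table. For CACGTG it was 1 of 10, against 8.36% of windows. Since 9 of the 10 members were higher in dual- than in single-targeted lines, a split by matches would place such members on both sides in any case. Pdk1, the member not called there, had no match. Whether matches go with the difference was not tested.

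Values per library were not used here, so group means were rebuilt by subtraction from the mean counts in the 4 tables. They carry no error and serve as levels only. Per kilobase of annotated exon, the wildtype level was highest for Pkm (1310 normalized counts per kb), followed by Gapdh (979), Aldoa (711), Eno1 (642), Ldha (421), Pdk1 (370), Pgk1 (351), Tpi1 (203), Hk2 (167) and Pfkl (161). Per kilobase of whole gene the order changed, with Gapdh first at 851 normalized counts per kb, then Aldoa (375), Pkm (285) and Eno1 (284), and Hk2 last at 20.1. Whether introns were counted is not stated, so neither order is preferred, and without a spread the order of neighbours such as Pkm and Eno1 cannot be tested.

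Hk2 and Pfkl, which act early in the pathway, behaved differently from each other. Hk2 encodes hexokinase 2, which phosphorylates incoming glucose, and lies on chromosome 6 from 82725025 to 82774454 (GRCm38). Its rebuilt mean was 994 normalized counts in wildtype, 1208 in single-targeted lines, 1874 in the clones and 1820 in the H3f3b-homozygous dual line. It was thus the member whose rebuilt mean was above wildtype in every mutant group. The authors' deposited table gave a log2 fold change of 0.16 ± 0.16 (SE) in single-targeted lines against wildtype (adjusted p = 0.574). Dual-targeted lines stood 0.86 ± 0.17 above wildtype per the authors' deposited table (adjusted p = 5.11e-06), and 0.53 ± 0.20 above single-targeted lines (adjusted p = 0.0239).

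Pfkl, the liver-type subunit of phosphofructokinase (chromosome 10, 77986947 to 78010083), had a rebuilt mean of 1072 normalized counts in wildtype and 555 in single-targeted lines. Its rebuilt mean returned to 1050 in the clones and 1375 in the H3f3b-homozygous dual line. It fell in single-targeted lines, with a log2 fold change of -0.79 ± 0.30 per the authors' deposited table (adjusted p = 0.0187). By rebuilt log2 ratios to wildtype the clones stood at -0.03 and the H3f3b-homozygous dual line at 0.36. Dual-targeted lines stood at 0.09 ± 0.19 against wildtype per the authors' deposited table (adjusted p = 0.752). Their excess over single-targeted lines was 0.87 ± 0.36 per the authors' deposited table (adjusted p = 0.0209). With length and mean count taken out that excess was 0.77 (adjusted p = 0.0619). The other phosphofructokinase subunits were not called between the mutant groups (Pfkp 0.01, adjusted p = 0.98; Pfkm -0.06, adjusted p = 0.82, per the authors' deposited table). Pfkp, the platelet type, fell in dual-targeted lines (-0.64 ± 0.23, adjusted p = 0.0105), and Pfkm, the muscle type, fell in dual-targeted (-0.92 ± 0.24, adjusted p = 2.75e-04) and single-targeted lines (-0.69 ± 0.29, adjusted p = 0.0344) per the authors' deposited tables.

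Aldoa and Tpi1 make and interconvert the triose phosphates. Aldoa, aldolase A (chromosome 7, 126795234 to 126800751), stood at a rebuilt mean of 2071 normalized counts in wildtype, 1312 in single-targeted lines, 3007 in the clones and 2876 in the H3f3b-homozygous dual line. Against wildtype neither shift of Aldoa passed the threshold per the authors' deposited tables, at -0.52 ± 0.24 in single-targeted (adjusted p = 0.0579) and 0.43 ± 0.22 in dual-targeted lines (adjusted p = 0.0809). The difference between the mutant groups did, at 1.05 ± 0.31 (adjusted p = 0.00378) per the authors' deposited table. Tpi1, triosephosphate isomerase (chromosome 6, 124810586 to 124814296), was the least counted member, with a rebuilt mean of 558 normalized counts in wildtype, 294 in single-targeted lines, 644 in the clones and 821 in the H3f3b-homozygous dual line. It fell in single-targeted lines (-0.75 ± 0.31, adjusted p = 0.0297) and was 1.08 ± 0.37 higher in dual-targeted than in single-targeted lines (adjusted p = 0.00914) per the authors' deposited tables. Against wildtype, dual-targeted lines stood at 0.26 ± 0.22 for Tpi1 per the authors' deposited table (adjusted p = 0.347). With length and mean count taken out, the difference between the mutant groups missed the threshold for both, at 0.64 for Aldoa (adjusted p = 0.0982) and 0.77 for Tpi1 (adjusted p = 0.079).

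For the payoff enzymes Gapdh and Pgk1, single-targeted lines were lowest and dual-targeted lines highest by rebuilt means. Gapdh, glyceraldehyde 3-phosphate dehydrogenase (chromosome 6, 125161715 to 125166467), had a rebuilt mean of 4046 normalized counts in wildtype, 3083 in single-targeted lines, 5308 in the clones and 5913 in the H3f3b-homozygous dual line. In the authors' deposited tables Gapdh was at -0.24 ± 0.20 in single-targeted (adjusted p = 0.37) and 0.39 ± 0.19 in dual-targeted lines (adjusted p = 0.0892), and the difference between them was 0.73 ± 0.24 (adjusted p = 0.0088). That call was lost with the length trend taken out (0.53, adjusted p = 0.0741) and with length and mean count taken out (0.32, adjusted p = 0.265). Pgk1, phosphoglycerate kinase 1 (chromosome X, 106187100 to 106203699), stood at 787 normalized counts in wildtype, 512 in single-targeted lines, 963 in the clones and 1075 in the H3f3b-homozygous dual line, by rebuilt means. In the authors' deposited tables Pgk1 was at -0.50 ± 0.21 in single-targeted (adjusted p = 0.051) and 0.30 ± 0.18 in dual-targeted lines (adjusted p = 0.194), with a difference of 0.87 ± 0.24 between them (adjusted p = 0.00282).

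The last steps, Eno1, Pkm and Ldha, were called above wildtype in dual-targeted lines as deposited. With length and mean count taken out these calls were lost, at 0.41 for Eno1 (adjusted p = 0.0903), 0.45 for Pkm (adjusted p = 0.0508) and 0.39 for Ldha (adjusted p = 0.0951), whereas their differences between the mutant groups stayed called. Eno1, enolase 1 (chromosome 4, 150236721 to 150248879), had a rebuilt mean of 3452 normalized counts in wildtype, 2305 in single-targeted lines, 5543 in the clones and 6301 in the H3f3b-homozygous dual line. Its difference between the mutant groups was the largest of the 10 members, at 1.22 ± 0.30 or 2.33-fold (adjusted p = 0.000725) per the authors' deposited table. Against wildtype Eno1 rose in dual-targeted lines (0.67 ± 0.22, adjusted p = 0.00573) and stood at -0.43 ± 0.23 in single-targeted lines (adjusted p = 0.107) per the authors' deposited tables. Pkm, which encodes the M1 and M2 forms of pyruvate kinase (chromosome 9, 59656368 to 59679375), had rebuilt means of 6550 normalized counts in wildtype, 4511 in single-targeted lines, 10404 in the clones and 10136 in the H3f3b-homozygous dual line. It rose by 0.58 ± 0.21 in dual-targeted lines (adjusted p = 0.0112), stood at -0.37 ± 0.23 in single-targeted lines (adjusted p = 0.164) and differed by 1.08 ± 0.29 between them (adjusted p = 0.00148) per the authors' deposited tables. The 2 forms of Pkm share most exons and cannot be told apart in values per gene.

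Ldha, lactate dehydrogenase A (chromosome 7, 46841475 to 46855627), had a rebuilt mean of 1393 normalized counts in wildtype, 943 in single-targeted lines, 2070 in the clones and 2694 in the H3f3b-homozygous dual line. In the authors' deposited tables Ldha rose in dual-targeted lines (0.64 ± 0.21, adjusted p = 0.00476), stood at -0.42 ± 0.23 in single-targeted lines (adjusted p = 0.12) and differed by 1.17 ± 0.28 between the mutant groups (adjusted p = 4.77e-04). With the clones alone Ldha was at 0.50 ± 0.22 against wildtype (adjusted p = 0.0502) per the authors' deposited table, just missing the threshold. Ldhb, the B subunit that favours the return of lactate to pyruvate, was lower in both mutant groups. Its rebuilt mean was 1077 normalized counts in wildtype and 395 in dual-targeted lines, and per the authors' deposited tables it fell in dual-targeted (-1.37 ± 0.22, adjusted p = 5.53e-09) and single-targeted lines (-1.06 ± 0.21, adjusted p = 1.57e-05). Between the mutant groups Ldhb stood at -0.15 ± 0.21 (adjusted p = 0.533) per the authors' deposited table.

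Pdk1, pyruvate dehydrogenase kinase 1 (chromosome 2, 71873224 to 71903858), did not share the difference. Its rebuilt mean was 2876 normalized counts in wildtype, 1841 in single-targeted lines, 2003 in the clones and 2228 in the H3f3b-homozygous dual line, so every mutant group was below wildtype. In the authors' deposited tables Pdk1 fell in single-targeted (-0.55 ± 0.19, adjusted p = 0.0163) and in dual-targeted lines (-0.41 ± 0.16, adjusted p = 0.026). The mutant groups differed by 0.13 ± 0.15 per the authors' deposited table (adjusted p = 0.533), with a 95% interval of -0.16 to 0.43.

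**Figure D2:**
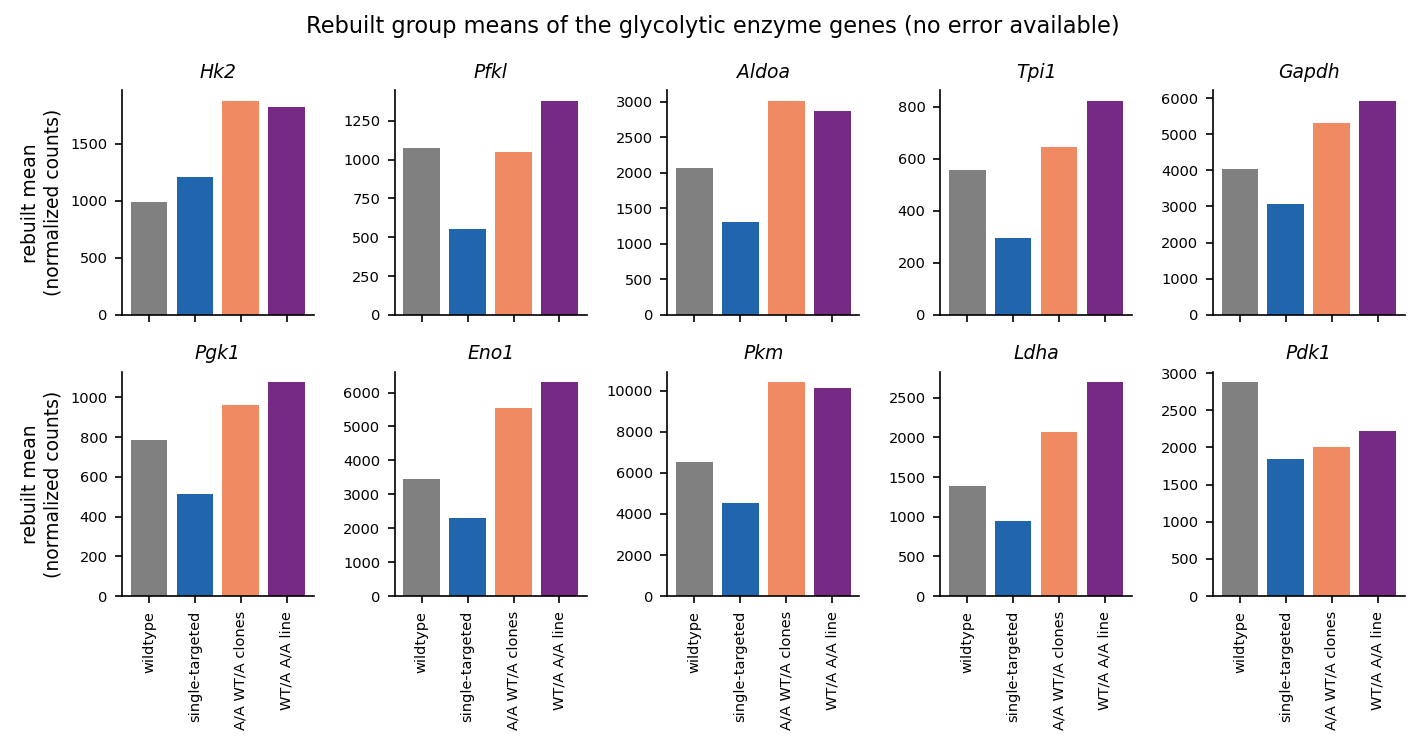
Rebuilt group means in normalized counts (vertical axes from 0, 1 panel per gene) for wildtype, single-targeted lines, the clones (A/A WT/A on the axis) and the H3f3b-homozygous dual line (WT/A A/A); bars carry no error because values per library were not used. In 8 panels the single-targeted bar is the lowest and the H3f3b-homozygous dual line stands above wildtype; Hk2 is lowest in wildtype and Pdk1 highest there.

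In the counts against wildtype, the dual-targeted lines had 4 of the 10 members higher and 1 lower, where 10.8% of all tested genes were called higher and 10.1% lower. In single-targeted lines 0 were higher and 3 lower (Pfkl, Tpi1 and Pdk1), where 1.49% of tested genes were higher and 1.47% lower. At an unadjusted p under 0.05 by the authors' DESeq2 test, 9 of the 10 members were below wildtype and 0 above it in that comparison, against 6.50% and 5.92% of all genes. The same looser count gave 6 members above and 1 below wildtype in dual-targeted lines (16.7% and 16.0% of all genes) and 5 and 1 in the clones (14.8% and 15.6%). Between the mutant groups it gave 9 higher and 0 lower, against 11.1% and 8.87%. In the clones alone 3 members were higher (Hk2, Eno1 and Pkm) and 1 lower (Pdk1), against backgrounds of 9.05% and 10.3%. The comparisons share libraries: the wildtype libraries enter all the comparisons with wildtype, and the mutant libraries enter again when the mutant groups are set against each other. The direct comparison is therefore the test of the difference, and not a further replicate of it. The median member stood at -0.47 in single-targeted lines, 0.41 in dual-targeted lines and 0.38 in the clones.

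The H3f3b-homozygous dual line, rebuilt from the tables, did not stand apart from the clones for most members. Its rebuilt log2 ratio to wildtype had a median of 0.55 over the members, compared with 0.46 in the clones and -0.60 in single-targeted lines. Ldha (0.95 in the line and 0.57 in the clones), Tpi1 (0.56 and 0.21) and Pfkl (0.36 and -0.03) showed the widest gaps between them. These ratios have no error, and 1 line was compared with 2.

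**Figure D3:**
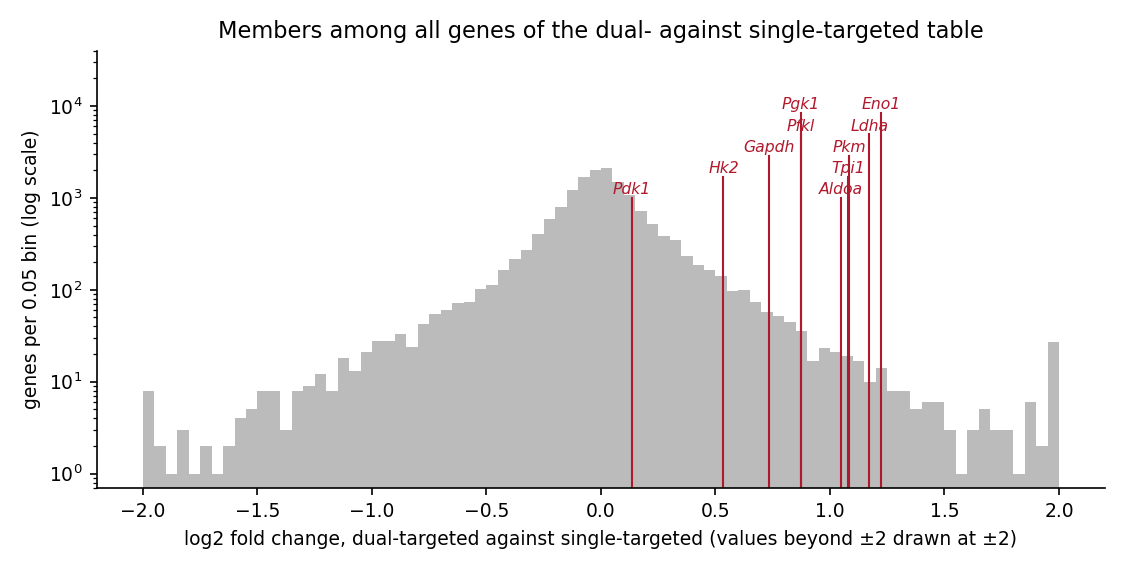
Log2 fold changes of dual-targeted against single-targeted lines for all 16149 genes of the authors' deposited table (grey, genes per bin on a log axis), with red lines at the 10 members. Pdk1, at 0.13, sits inside the bulk of genes, and the other 9 lie in the right tail from 0.53 to 1.22.

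Set among all 16149 genes, 93 had a larger log2 fold change than Eno1 and 104 a larger one than Ldha per the authors' deposited table of dual- against single-targeted lines. Pkm was exceeded by 131 genes, Tpi1 by 134, Aldoa by 147, Pgk1 by 228, Pfkl by 229, Gapdh by 355 and Hk2 by 707. Pdk1 was exceeded by 3655 genes. Because the members were chosen with earlier results of these data known, these ranks describe them and give no independent support.

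Gene length and depth moved with these values. Shorter genes were higher in dual-targeted than in single-targeted lines (Spearman's rho -0.443 over 9933 protein-coding genes; genes are no independent replicates). The same description gave -0.293 for dual-targeted lines against wildtype and 0.161 for single-targeted lines against wildtype. The members span from 3711 bases (Tpi1) to 49430 (Hk2) and are deeply counted. Of the 10, 8 are shorter than the median of these genes (26391 bases), and Pdk1 and Hk2 are longer. Among protein-coding genes of at most 50000 bases and at least 500 mean counts, 12.2% were higher in dual- than in single-targeted lines and 1.44% lower. In the same set the dual-targeted lines had 20.4% higher and 6.72% lower than wildtype, the single-targeted lines 1.15% and 2.84%, and the clones 16.1% and 6.82%. Among the 228 genes in the same class of length and depth as Gapdh and Aldoa, 40.4% were higher, whereas for Pkm and Pfkl it was 8.43% of 415 genes. With the class median taken out, the 10 members stood between 0.03 and 0.98 in the dual- against single-targeted comparison, at a median of 0.75, and 5 were called: Hk2, Pgk1, Eno1, Pkm and Ldha. Against wildtype the same step left a median of 0.03 in dual-targeted lines with 1 member called higher (Hk2), and -0.44 in single-targeted lines. The class medians taken out for the members lay between 0.01 and 0.42 in dual-targeted lines against wildtype. In single-targeted lines they lay between -0.03 and 0.02. They are medians of fold changes read as shrunken, to a degree that may differ between the comparisons. This adjustment was chosen after the data were seen, and whether length or depth accounts for part of the shift was not tested beyond it.

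**Figure D4:**
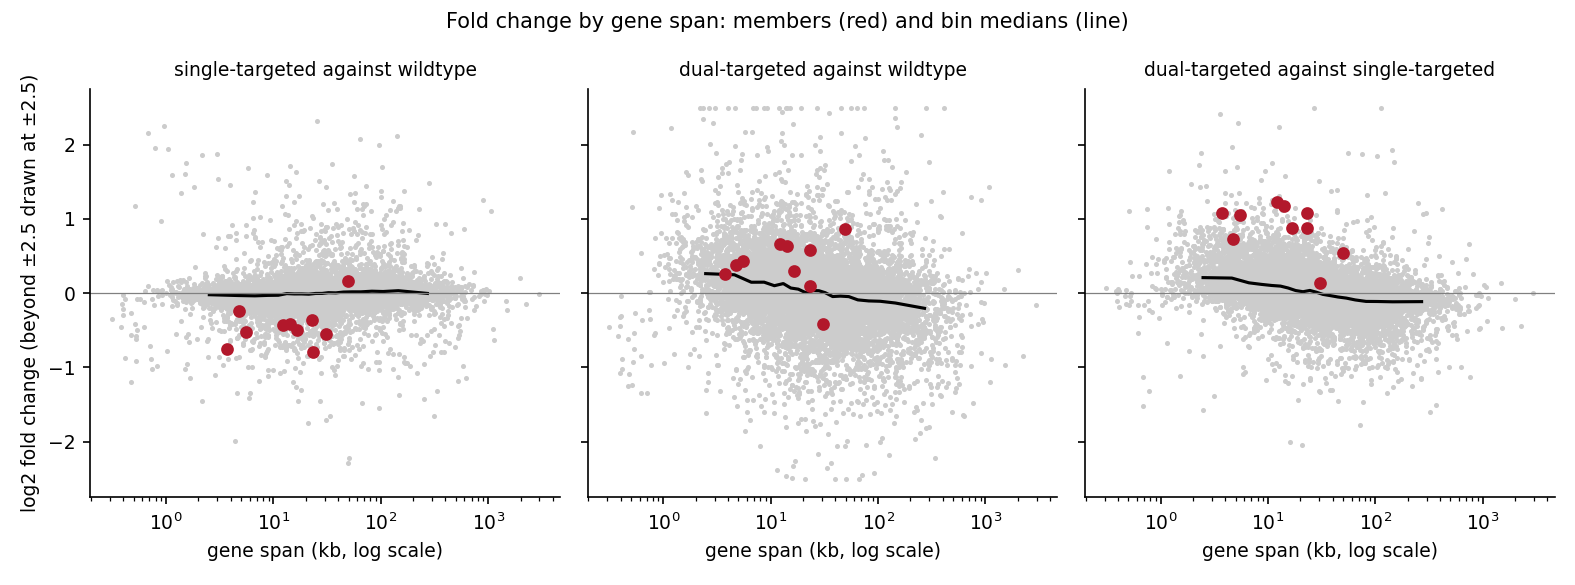
Log2 fold change against gene span in kilobases (log axis) for protein-coding genes of at least 50 mean counts (grey), the medians of 20 length bins (black line) and the 10 members (red), in 3 comparisons. The line falls with length in the panel of dual- against single-targeted lines, from 0.21 in the shortest bin to -0.11 in the longest, and the 10 members lie above it.

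Neighbours on the chromosome were described in the same way. Genes within 500 kb of a member, kept at mean counts of at least 50, had median log2 fold changes from -0.16 (around Pgk1) to 0.30 (around Pfkl) in the dual- against single-targeted comparison. The chromosomes that carry members had medians from -0.01 to 0.03. Members were not counted as neighbours, although Tpi1 lies within 500 kb of Gapdh and stood above it (1.08 against 0.73), so these windows share genes. Of the other genes around Eno1 (7), Ldha (7), Tpi1 (22), Gapdh (22) and Pkm (10), 0 had a larger value than the member. The same held around Hk2, Pfkl and Pgk1, whereas 1 of 35 genes around Aldoa and 1 of 5 around Pdk1 stood above the member. Summed over the windows, with shared genes counted again, 16 of 130 neighbours were called higher and 4 lower. Over all genes 4.37% were higher and 2.69% lower. Hk2 overlaps the antisense gene Gm17034, which is in none of the tables. Aldoa, Tpi1 and Gapdh overlap Fam57b, Spsb2 and Iffo1 on the opposite strand, and these were at -1.74 (no adjusted p given), 0.11 (adjusted p = 0.56) and -0.18 (adjusted p = 0.453) per the authors' deposited table of the mutant groups. Gm49759, an unclassified transcript inside Pkm on the same strand, was higher by 0.50 ± 0.20 in that deposited table of the authors (adjusted p = 0.0376).

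Near-identical copies make some of these values uncertain, because no source used here tells how reads with several matches were handled. With at least 90% identity over at least 200 bases of transcript, Gapdh matched 180 other annotated genes, Ldha 13, Pkm 9, Eno1 7, Aldoa 6, Pgk1 4 and Tpi1 2, most of them pseudogenes, while Hk2, Pfkl and Pdk1 matched 0. Of the copies of Gapdh, 11 were in at least 1 table. The highest was 3000002C10Rik, with a mean of 154 normalized counts against 4290 for Gapdh per the authors' deposited table of the mutant groups, and a log2 fold change of -0.01 ± 0.18 (adjusted p = 0.98). Eno1b, which matches Eno1 at 99.5%, had a mean of 126 normalized counts and was higher by 0.80 ± 0.37 (adjusted p = 0.034) per the authors' deposited table of the mutant groups. How reads were shared between Eno1 and Eno1b was not tested.

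The other enzymes of the pathway were taken from a list of their own. Of the 22 other glycolytic enzymes and isozymes on the list, 14 were in the tables. In dual- against single-targeted lines 2 were higher (Pgam1 and Eno1b) and 1 lower (Eno2) of 12 with an adjusted p. Over all genes 4.37% were higher and 2.69% lower. The list median was 0.02. Pgam1 and Gpi1 complete the main route, and both were chosen for mention after their values were seen. Pgam1, phosphoglycerate mutase, rose between the mutant groups by 0.65 ± 0.28 (adjusted p = 0.0321), and Gpi1, which converts glucose 6-phosphate to fructose 6-phosphate, stood at 0.15 ± 0.19 (adjusted p = 0.524) per the authors' deposited table. Eno2, the neuronal enolase, was lower in dual- than in single-targeted lines, at -1.17 ± 0.38 (adjusted p = 0.00768) per the authors' deposited table. In dual-targeted lines against wildtype the list had 1 higher and 4 lower of 14, at a median of -0.22, against 10.8% and 10.1% of all genes.

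**Figure D5:**
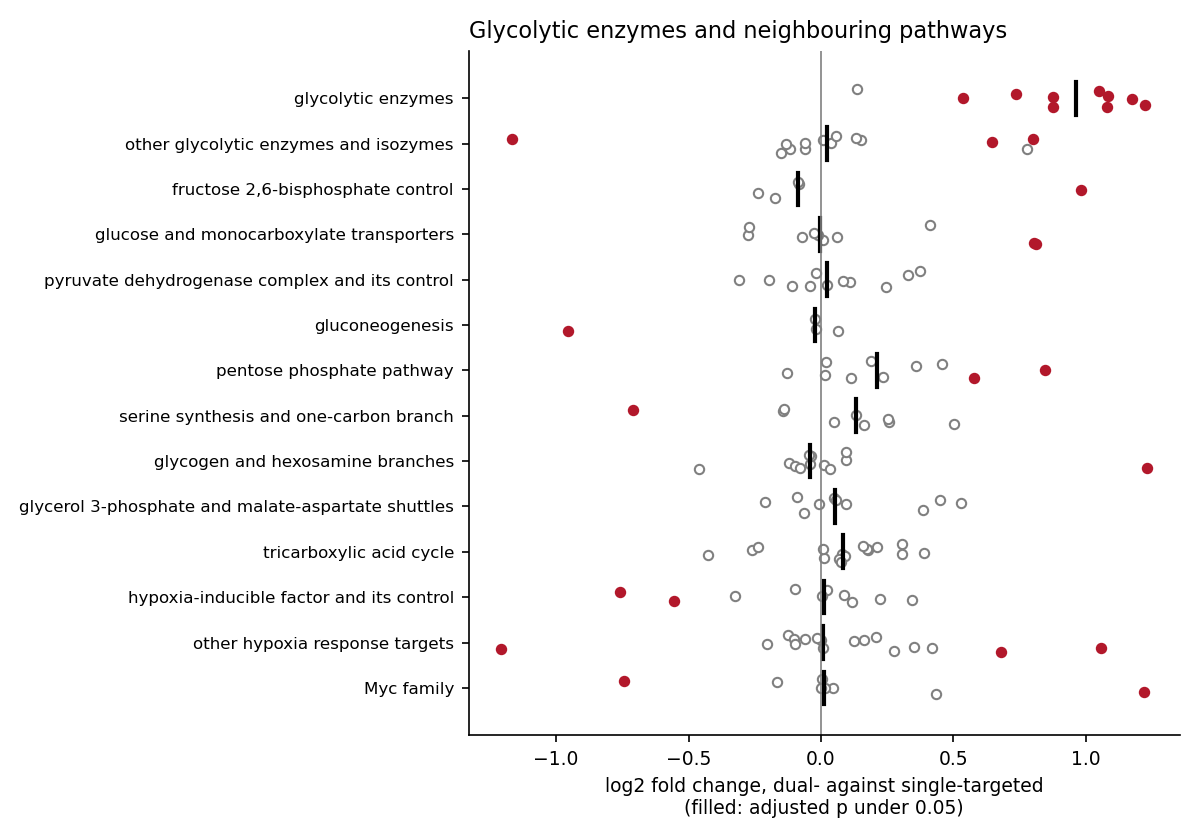
Log2 fold change of dual-targeted against single-targeted lines (horizontal axis) for the 10 members and 13 other gene lists; each point is a gene, filled where the adjusted p was under 0.05, and black bars are list medians. The members' median is 0.96, and those of the other lists lie between -0.09 and 0.21.

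Entry and exit points of the pathway held a few called genes. Shares over all genes were 4.37% higher and 2.69% lower between the mutant groups, and 10.8% and 10.1% in dual-targeted lines against wildtype. Pfkfb3, which makes the activator fructose 2,6-bisphosphate, was 1 of 5 such genes called and was higher in dual-targeted lines than in wildtype (0.89 ± 0.28, adjusted p = 0.00246) and than in single-targeted lines (0.98 ± 0.38, adjusted p = 0.0163) per the authors' deposited tables. Of 9 tested transporters of glucose, lactate and pyruvate, 2 were higher between the mutant groups and 0 lower. These were the glucose transporter Slc2a1 (0.81 ± 0.29, adjusted p = 0.014) and the lactate exporter Slc16a3 (0.80 ± 0.37, adjusted p = 0.0314) per the authors' deposited table. Slc2a3, the other main glucose transporter, fell in the clones against wildtype (-0.56 ± 0.18, adjusted p = 0.00704) per the authors' deposited table. It was the 1 transporter of 10 called lower there, with 0 higher, against 10.3% and 9.05% of all genes. Over all dual-targeted lines Slc2a3 was not called against wildtype. Its rebuilt log2 ratio to wildtype was -0.63 in the clones and -0.15 in the H3f3b-homozygous dual line.

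Genes at the entry to the mitochondrion were called in the comparison with wildtype. Of 11 genes of the pyruvate dehydrogenase complex and its control, dual-targeted lines had 3 higher and 3 lower than wildtype. Of all genes 10.8% were higher and 10.1% lower there. Between dual- and single-targeted lines 0 of the 11 were called in either direction. The subunits Pdha1 (0.83 ± 0.19, adjusted p = 4.30e-05), Pdhx (0.78 ± 0.20, adjusted p = 3.99e-04) and Pdhb (0.59 ± 0.19, adjusted p = 0.00553) rose in dual-targeted lines per the authors' deposited table. The phosphatase Pdp2 fell in dual-targeted (-0.93 ± 0.20, adjusted p = 1.88e-05) and single-targeted lines (-0.84 ± 0.24, adjusted p = 0.00212) per the authors' deposited tables, as did the phosphatase regulator Pdpr in dual-targeted lines (-0.65 ± 0.18, adjusted p = 0.00143). Pdp2 and Pdpr lie on chromosome 8, whose genes had a median of -0.32 in dual-targeted and -0.21 in single-targeted lines against wildtype, and the part of the chromosome in these falls was not tested. The 10 members lie on chromosomes 2, 4, 6, 7, 9, 10 and X.

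Side branches and the tricarboxylic acid cycle held few called genes. Over all genes 4.37% were higher and 2.69% lower between the mutant groups, and 10.8% and 10.1% in dual-targeted lines against wildtype. Of 16 cycle genes, 0 were called in either direction between the mutant groups and 1, Idh2 (isocitrate dehydrogenase 2), fell in dual-targeted lines against wildtype (-0.98 ± 0.21, adjusted p = 1.70e-05) per the authors' deposited table. Of 10 pentose phosphate genes, 2 were higher between the mutant groups. Rpe, ribulose-phosphate epimerase, stood above wildtype in single-targeted (0.84 ± 0.27, adjusted p = 0.00787) and dual-targeted lines (1.86 ± 0.22, adjusted p = 7.00e-16) per the authors' deposited tables, with a difference of 0.84 ± 0.21 between them (adjusted p = 9.13e-04). Pgd, of the oxidative branch, was higher by 0.58 ± 0.26 between the mutant groups (adjusted p = 0.0431) per the authors' deposited table. Of 9 tested shuttle genes 0 were called in that comparison, and of 9 genes of serine synthesis and its one-carbon branch 1 was lower, Psph (-0.71 ± 0.31, adjusted p = 0.0349) per the authors' deposited table. Pck2, the mitochondrial enzyme that makes phosphoenolpyruvate, was lower in dual- than in single-targeted lines (-0.95 ± 0.37, adjusted p = 0.0188) per the authors' deposited table, and it lies on chromosome 14, whose genes had a median of -0.51 in the clones against wildtype and -0.03 between the mutant groups.

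The regulators of these genes were read from lists of their own. Hif1a stood at -0.10 ± 0.16 between the mutant groups (adjusted p = 0.676) per the authors' deposited table, a gene named after its value was seen. Its partner Arnt was lower (-0.55 ± 0.20, adjusted p = 0.0209), as was the inhibitory family member Hif3a (-0.76 ± 0.30, adjusted p = 0.0215), per the authors' deposited table of the mutant groups. Of the 10 genes on the list of HIF and its control, these 2 were lower and 0 higher, against 2.69% and 4.37% of all genes. Egln3, a prolyl hydroxylase that marks HIF for destruction, had a rebuilt mean of 131 normalized counts in wildtype, 64.9 in single-targeted and 36.7 in dual-targeted lines. These means carry no error, and Egln3 was not called between the mutant groups. Dual-targeted lines had 5 of the 10 lower than wildtype and 0 higher, against 10.1% and 10.8% of all genes. Among 16 tested hypoxia targets outside glycolysis, 2 were higher and 1 lower between the mutant groups, at a median of 0.01. Fam162a rose with the members (1.06 ± 0.32, adjusted p = 0.00498), while Vegfa, the angiogenic factor, was lower (-1.21 ± 0.27, adjusted p = 2.37e-04), per the authors' deposited table. Myc had rebuilt means of 144 normalized counts in wildtype, 143 in single-targeted and 401 in dual-targeted lines, and it was higher between the mutant groups by 1.22 ± 0.48 (adjusted p = 0.0152) per the authors' deposited table. Of the 8 genes on that list Mlxipl, a glucose-sensing factor, was lower (-0.74 ± 0.32, adjusted p = 0.03) and 6 were not called.

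Over the 13 other lists together, 11 of 130 tested genes were higher and 7 lower in dual- than in single-targeted lines, or 8.46% and 5.38%. Of all tested genes 4.37% were higher and 2.69% lower, and 8.78% were higher at mean counts of at least 500. Genes outside the lists whose rebuilt ratios to wildtype were nearest to the members' median, over single-targeted lines, the clones and the H3f3b-homozygous dual line, were Fzd10, Rps15, Bag5, Use1 and Ppdpf. The distances in log2 units were 0.11 for Fzd10, Rps15 and Bag5, 0.12 for Use1 and 0.14 for Ppdpf, out of 11099 genes searched over these 3 ratios. Rps15, a ribosomal protein gene, was higher between the mutant groups by 0.94 per the authors' deposited table (adjusted p = 0.00205), and Ppdpf stood at 0.55 (adjusted p = 0.113).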

How the data were processed

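The data were 4 tables of the authors' own comparisons, made before deposit, each with its own normalization. Per the file headers, each gene's first value is a signal level, its normalized count averaged by the authors across the compared libraries. The log2 fold change, its standard error, the p-value and the adjusted p-value were deposited by the authors beside it. Per the submitters' processing notes, the tools were deepTools, DESeq2, featureCounts, SAMtools and STAR, without versions, with GRCm38.p6 and mm10 as builds. No source used here states strand use or the handling of reads with several matches; overlapping, antisense and multi-copy genes are uncertain. Against wildtype, the table of dual-targeted lines held 16498 genes, that of single-targeted lines 16255 and that of the clones 16254; the table of both mutant groups held 16149. The depth per library is unknown. In 100% of called genes, fold change over error fell short of the z of the p-value, so fold changes are read as shrunken, and their sizes in different tables are not strictly comparable.

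Calls are the authors' DESeq2 tests with adjusted p under 0.05 over a whole table. Group means were rebuilt by subtraction over the 15571 genes in all 4 tables, with scales (0.983, 1.06 and 0.957) set so that the median gene with mean counts of 50 or more equals wildtype. Their sign was the same as that of the fold change for 100% of 885 called genes in the dual- against single-targeted table and of 2726, 387 and 2504 in the others. Positive values are thus higher in the mutant group, or in dual-targeted lines. For adjusted trends, medians of 20 length bins, or of 5 by 5 classes of length and mean count, were subtracted, and p was recomputed from a z of the deposited p shifted by the median over the standard error. That median and standard error belong to fold changes read as shrunken and the z does not, so the recomputed p is approximate. Locations and lengths came from GENCODE M21 (GRCm38), and promoters from RefSeq (GRCm38.p6), which matched 10 of 10 members. The RefSeq start nearest that of the principal transcript was taken. Copies were sought among GENCODE transcripts with blastn. Of each list, called genes could be named, up to 6 by adjusted p, and all members were named. The members and lists were chosen with earlier results of these data known. Python 3.11.15, numpy 2.4.6, pandas 2.3.3 and scipy 1.17.1 were used. The rebuilding of means, the adjustment of p and the centring on the median gene were tested on simulated data. The length and mean count trends and the searches for motifs and copies were not. In the simulated means only dual-targeted lines differed from wildtype, and in few genes, so falls in single-targeted lines were not covered.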

Additional observations from a re-analysis of the deposited data

Results flagged for a closer look

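The effects of the mutant groups differed by the direct test of the difference, the authors' DESeq2 comparison of dual- with single-targeted lines, for 9 members. The log2 differences in the authors' deposited table were 0.53 for Hk2, 0.87 for Pfkl, 1.05 for Aldoa, 1.08 for Tpi1, 0.73 for Gapdh, 0.87 for Pgk1, 1.22 for Eno1, 1.08 for Pkm and 1.17 for Ldha. For Hk2 both deposited values against wildtype lay above 0, but the single-targeted one, at 0.16, was not called (adjusted p = 0.574 by the authors' DESeq2 test). For the other 8 the deposited single-targeted value lay below wildtype and the dual-targeted value above it, but 0 of the 8 were called in both directions. Pfkl stood at -0.011 in the clones, and with length and mean count taken out the dual-targeted values against wildtype were -0.035 for Pfkl, -0.056 for Tpi1, -0.036 for Gapdh and 0.0085 for Aldoa.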

How the results depend on the processing

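At an adjusted p under 0.01, 7 members remained higher in dual- than in single-targeted lines, all of them among the 9. At that threshold 0 were lower in dual-targeted lines against wildtype, 0 in single-targeted lines and 0 in the clones, and 1 was higher in the clones. With the class median of length and mean count taken out, a step chosen after the data were seen, 5 members were higher between the mutant groups, 1 in dual-targeted lines against wildtype and 1 in the clones. That step turned the sign of uncalled values: against wildtype, Pfkl went to -0.035, Tpi1 to -0.056 and Gapdh to -0.036 in dual-targeted lines, and Aldoa to -0.019, Tpi1 to -0.17 and Gapdh to -0.13 in the clones. The length trend alone turned Tpi1 to -0.11 in the clones, and leaving out the H3f3b-homozygous dual line turned Pfkl to -0.011. The cause was not tested. With the length trend alone, 8 members were higher between the mutant groups, without Gapdh, and Eno1 lost its call in the clones (adjusted p = 0.0974). Without the H3f3b-homozygous dual line, the members higher than wildtype numbered 3 in place of 4. Centring on the median gene, or adjusting p over all genes, changed no call. Limiting the tables to mean counts of 50 or more added Pgk1 in single-targeted lines (adjusted p = 0.0442) and Ldha in the clones (adjusted p = 0.0444). Of the 5 genes nearest the members' pattern, 1 was shared when mean counts of 200 or more were required. Other libraries could not be left out in turn, since the tables hold no values per library. No paired analysis was possible because the columns are comparisons and carry no replicate numbers.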
